A study of Mus musculus with 6 samples.

Results

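The enzymes that desaturate and elongate long-chain fatty acids were examined in liver RNA of mice in which selective autophagy of lipid droplets (lipophagy) was induced. The genes were chosen by name as Fads1, Fads2, Fads3, Elovl1, Elovl2, Elovl3, Elovl5, Elovl7 and Scd2, and all 9 were found among the 24346 gene symbols of the table. RNA sequencing was performed on whole livers of 3 control mice and 3 lipophagy-induced mice. All 6 were male mice labelled C57BL/6 (C57BL/6J in the methods of the study), received CDAHFD, a diet high in fat that lacks choline and replaces protein by defined amino acids, for 6 weeks from 8 weeks of age as a model of nonalcoholic steatohepatitis (NASH), were then injected once with an adeno-associated virus, and were kept on chow for 2 weeks before liver was taken. The virus of the control group encoded LDTS-LIR mut, in which a lipid droplet-targeting sequence (LDTS) of mouse perilipin 1 is joined to an LC3-interacting region that cannot bind the autophagosome protein LC3. The virus of the lipophagy group encoded LDTS-eLIR, with an engineered region of strong LC3 binding. Both viruses were of serotype AAV8, carried mCherry and used the thyroxine-binding globulin promoter, which is active in hepatocytes, so the diet, the virus, mCherry and the LDTS were shared by both groups. No liver without a virus or without the diet was analysed here.

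Polyunsaturated fatty acids are made in the liver from linoleic and alpha-linolenic acid of the diet, by desaturases that add double bonds and elongases that lengthen the chain in the endoplasmic reticulum. FADS2 takes the first step, ELOVL5 elongates its product, FADS1 then gives arachidonic and eicosapentaenoic acid, and ELOVL2 leads on towards docosahexaenoic acid (DHA). Transcription of these genes is known to respond to SREBP1c and PPAR-alpha and to be held down by polyunsaturated fatty acids themselves. The name of the group holds for these 4 enzymes. FADS3 acts on the sphingoid base of ceramides, ELOVL1 and ELOVL3 elongate mainly saturated and monounsaturated chains, ELOVL7 elongates long chains of several kinds, and SCD2 makes monounsaturated fatty acids, so that these 5 stand beside the polyunsaturated pathway rather than in it.

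The Fads genes are neighbours on mouse chromosome 19 (GRCm38). Fads3 lies at chr19:10040855-10060113 on the plus strand, Fads2 at chr19:10062765-10101503 on the minus strand and Fads1 at chr19:10182877-10196874 on the plus strand, together spanning 156 kb. The 3′ ends of Fads3 and Fads2 face each other across 2.65 kb, and the 5′ ends of Fads2 and Fads1 face each other across 81.4 kb. Scd2 lies on the same chromosome at chr19:44293676-44306864, in a cluster of 204 kb with Scd1, Scd3 and Scd4, and Elovl3 at chr19:46131897-46135694. The other elongases are dispersed, with Elovl5 at chr9:77917365-77984519, Elovl2 at chr13:41182382-41220403, Elovl7 at chr13:108214326-108287109 and Elovl1 at chr4:118426874-118432953. Exons of Elovl1 share bases with Cdc20 and exons of Elovl3 with Pitx3, both on the opposite strand, and Scd2 shares bases with Mir5114 on its own strand. Because whether strand was used in counting is not given in the sources used here, reads from these shared bases cannot be told apart.

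The 250 bases before the start of Fads2, Elovl5 and Elovl2 are shown because these genes carry the first steps and the last elongations of the pathway and were the most abundant members with an entry in the RefSeq promoter table (GRCm38.p6). Each reads 5′ to 3′ on the gene's own strand and ends at the base before the start. Capitals mark matches, on either strand, to the NF-Y box CCAAT, to the GC box GGGCGG and to the E-box CACGTG. The windows are chr19:10101504-10101753 on the minus strand for Fads2, chr9:77917115-77917364 on the plus strand for Elovl5 and chr13:41220404-41220653 on the minus strand for Elovl2.
Fads2: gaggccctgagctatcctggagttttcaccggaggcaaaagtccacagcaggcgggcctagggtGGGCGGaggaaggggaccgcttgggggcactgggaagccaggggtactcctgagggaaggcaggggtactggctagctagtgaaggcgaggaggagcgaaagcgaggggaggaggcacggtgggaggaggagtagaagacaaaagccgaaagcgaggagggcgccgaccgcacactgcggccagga
Elovl5: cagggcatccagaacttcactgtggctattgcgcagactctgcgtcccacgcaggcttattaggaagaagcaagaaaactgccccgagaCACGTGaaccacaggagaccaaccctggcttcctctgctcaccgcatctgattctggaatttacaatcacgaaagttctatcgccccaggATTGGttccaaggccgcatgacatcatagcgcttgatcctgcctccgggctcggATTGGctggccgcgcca
Elovl2: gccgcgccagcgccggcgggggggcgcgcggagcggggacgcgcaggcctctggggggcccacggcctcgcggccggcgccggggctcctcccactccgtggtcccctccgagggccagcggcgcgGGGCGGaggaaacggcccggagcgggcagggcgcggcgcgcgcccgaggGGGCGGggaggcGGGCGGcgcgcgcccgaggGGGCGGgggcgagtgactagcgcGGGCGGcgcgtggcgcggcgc

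The Fads2 window held 1 GC box, which began 186 bases before the start. The Elovl5 window held 2 NF-Y boxes on the opposite strand, 71 and 17 bases before the start, and 1 E-box 161 bases before it. The Elovl2 window shown held 5 GC boxes within the last 124 bases, and 87.2% of its bases were G or C, against 64.8% for Fads2 and 55.6% for Elovl5. Another Elovl2 window, chr13:41220163-41220412 on the minus strand, held none of these motifs, and 79.6% of its bases were G or C. Of 9 members, 6 had an entry, with 8 windows in all, and Fads1, Elovl3 and Scd2 had none. None of the 8 windows held the sterol regulatory element TCACNCCAC, which stood in 1.05% of the 32851 windows of the table. CCAAT stood in 33.9% of them, GGGCGG in 32.7% and CACGTG in 6.02%. A CCAAT and a GGGCGG match overlap in the Elovl1 window at chr4:118427843-118428092.

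The values are FPKM (fragments counted per kilobase of a gene's transcript and relative to all mapped fragments), which can be compared between genes because they are per length. Depth estimated from the values of single fragments was 23.7 to 34.0 M fragments in control livers and 22.9 to 24.7 M in lipophagy livers. The summed FPKM was 622700 to 681140 in control livers and 709990 to 782390 in lipophagy livers, so that the total of the table was higher in every lipophagy liver. No pair of livers had identical values, and their Spearman correlation across genes was 0.979 to 0.982. The tissue expressed the defining genes of hepatocytes, and Alb took 5.40% to 6.20% of the summed FPKM in control livers and 6.13% to 8.19% in lipophagy livers. All labels describe 1 liver each, and p-values measure the spread between these livers.

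Fads2 was the most abundant member in both groups. In control livers the order by mean FPKM was Fads2, Elovl5, Elovl2, Fads1, Elovl3, Elovl1, Scd2, Fads3 and Elovl7, and the order was the same in lipophagy livers. The steps did not all exceed the spread between livers. In control livers the ranges of Elovl5 and Elovl2, of Elovl2 and Fads1, of Elovl3 and Elovl1, and of Scd2 and Fads3 overlapped, and in lipophagy livers those of Fads2 and Elovl5 overlapped as well. The 6 members from Fads2 to Elovl1 had means of 27.8 to 126 FPKM in control livers. Scd2, Fads3 and Elovl7 lay far below them, at 1.68, 1.47 and 0.322 FPKM.

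**Figure D1:**
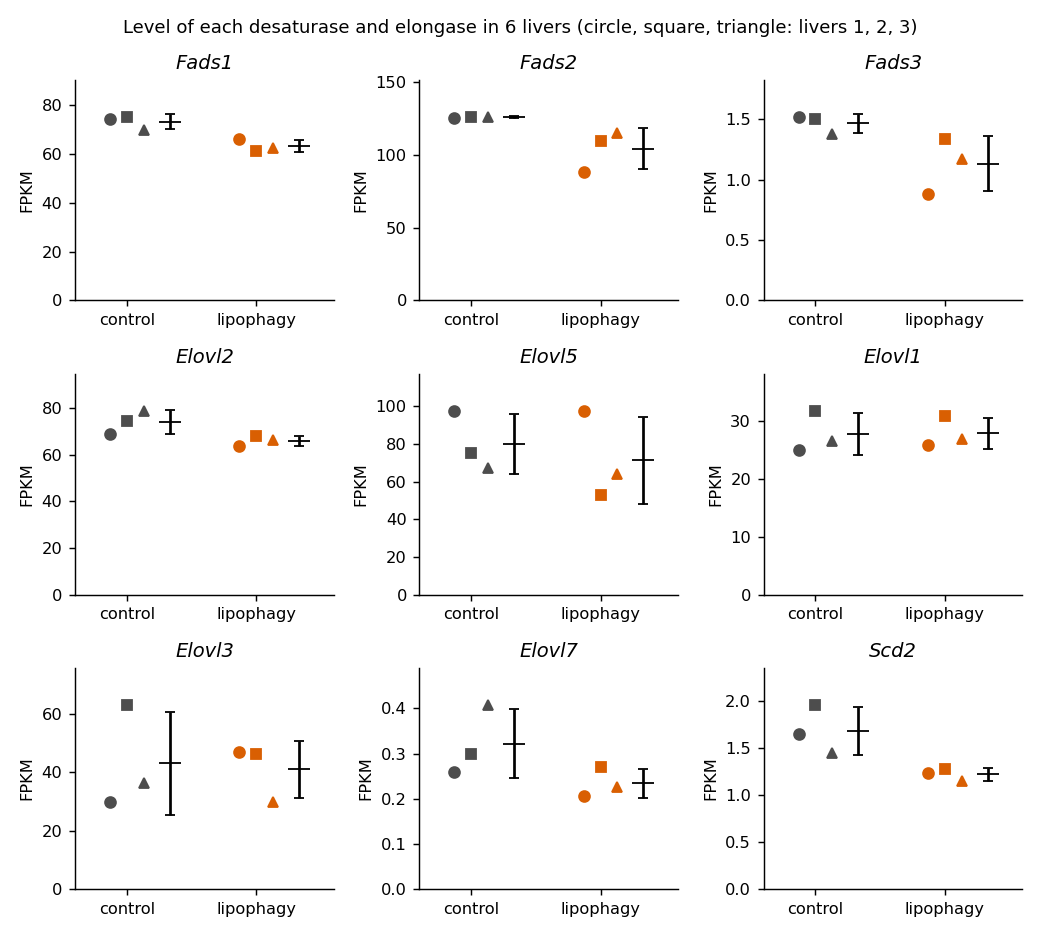
FPKM of each desaturase and elongase in every liver, with 1 panel per gene, a vertical axis from 0, and control and lipophagy livers side by side. Circle, square and triangle are livers 1, 2 and 3 of a group and the horizontal lines are group means. Fads1, Fads2, Fads3, Elovl2 and Scd2 had every lipophagy liver below every control liver, while both groups overlapped for Elovl1, Elovl3, Elovl5 and Elovl7.

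Of the 8 members that entered the test, 7 had a lower mean in lipophagy livers on the log2(FPKM + 1) scale and 1 a higher one. No member passed limma's test after Benjamini-Hochberg adjustment over the 11493 tested genes, with adjusted p from 0.194 to 0.972, where 0.0261% of all tested genes (3 genes) passed. The groups did not overlap, with lipophagy livers lower, for 5 of the 8 members, against 10.8% of all tested genes. None of the 8 stood apart with lipophagy livers higher, against 15.4% of all tested genes. An unadjusted p below 0.05 with a lower mean was found for 3 of 8, Fads1, Fads2 and Scd2, against 7.97% of all tested genes, and none of 8 was found with a higher mean, against 11.5% of all tested genes. Without control liver 2 none of the 8 had an unadjusted p below 0.05. In that setting 666 of all 11493 tested genes had one with a lower mean and 931 with a higher mean. The median difference over the 8 was -0.20, against 0.02 over all tested genes, and the summed FPKM of the 9 members was 408 to 450 in control livers and 367 to 391 in lipophagy livers.

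The means of both desaturases of the polyunsaturated pathway were lower by 13.5% to 17.2%. Fads2, the first desaturase, was at 125, 126 and 126 FPKM in control livers and at 88.6, 109 and 115 FPKM in lipophagy livers. The control livers were nearly identical, the lipophagy livers were all below them, and lipophagy liver 1 was the lowest. The means were 126 ± 0.728 and 104 ± 13.98 FPKM (SD, n = 3 each), which is 17.2% lower. On the log2(FPKM + 1) scale the difference was -0.28 (SE 0.107, 95% interval -0.52 to -0.03), with an unadjusted p of 0.0310 and an adjusted p of 0.222 by limma.

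Fads1, the desaturase that yields arachidonic acid, was at 74.3, 75.3 and 69.6 FPKM in control livers and at 66.1, 61.2 and 62.3 FPKM in lipophagy livers. All lipophagy livers were below all control livers, and the gap between the groups was smaller than for Fads2. The means of 73.1 ± 3.02 and 63.2 ± 2.59 FPKM (SD, n = 3 each) differed by 13.5%. The log2 difference was -0.21 (SE 0.0762, 95% interval -0.38 to -0.03), with an unadjusted p of 0.0265 and an adjusted p of 0.212 by limma.

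Fads3, the sphingoid base desaturase, was near 1 FPKM, at 1.52, 1.503 and 1.38 FPKM in control livers and at 0.886, 1.34 and 1.17 FPKM in lipophagy livers. The groups did not overlap, but the highest lipophagy liver lay close to the lowest control liver. These values rest on an estimated 74.3 to 166 fragments a liver. The mean was 23.0% lower, at 1.13 ± 0.228 against 1.47 ± 0.0791 FPKM (SD, n = 3 each), and the log2 difference was -0.22 (SE 0.0966, adjusted p = 0.264 by limma), on a scale that understates the difference of a gene this low, or -0.37 with a pseudocount of 0.1.

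The elongases of the pathway differed in their spread. Elovl2, which elongates the longest polyunsaturated chains towards DHA, was at 68.9, 74.5 and 78.9 FPKM in control livers and at 63.8, 67.9 and 66.5 FPKM in lipophagy livers. The groups did not overlap by a margin of about 1 FPKM. Its mean was 10.9% lower, at 66.1 ± 2.09 against 74.1 ± 5.02 FPKM (SD, n = 3 each), with a log2 difference of -0.16 (SE 0.0811, adjusted p = 0.306 by limma).

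Elovl5, the elongase that follows FADS2, was at 97.7, 75.1 and 67.4 FPKM in control livers and at 97.4, 52.8 and 63.9 FPKM in lipophagy livers. The first liver of each group was high and the others were lower, so that the groups overlapped. The log2 difference was -0.19, about that of Fads1, but its SE was 0.224 and its 95% interval ran from -0.71 to 0.32 (adjusted p = 0.651 by limma). The interval holds differences of either sign, and single livers set the value, which was -0.0030 without lipophagy liver 2, -0.04 without control liver 1, -0.31 without control liver 3 and -0.44 without lipophagy liver 1.

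Elovl1, the elongase of saturated very long chains for sphingolipids, was at 25.0, 31.8 and 26.5 FPKM in control livers and at 25.8, 31.0 and 26.9 FPKM in lipophagy livers. Both groups covered the same range. The means were 27.8 ± 3.55 and 27.9 ± 2.70 FPKM (SD, n = 3 each), and the log2 difference of 0.01 (SE 0.112, 95% interval -0.25 to 0.27, adjusted p = 0.972 by limma) became -0.17 when livers were scaled to the same sum and -0.10 after quantile normalization.

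Elovl3, a liver and brown fat elongase whose hepatic level is known to follow the time of day, was the most variable member, at 29.8, 63.0 and 36.1 FPKM in control livers and at 47.1, 46.1 and 29.6 FPKM in lipophagy livers. Control liver 2 was far above the other livers, and the groups overlapped. The log2 difference was -0.02 (SE 0.277, 95% interval -0.66 to 0.61, adjusted p = 0.968 by limma), and it became 0.28 without control liver 2. The time of day at which each liver was taken is not given in the sources used here.

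Elovl7, an elongase of low level in liver, was at 0.259, 0.300 and 0.408 FPKM in control livers and at 0.205, 0.270 and 0.227 FPKM in lipophagy livers. It was the only member below the minimum mean of 0.5 FPKM and did not enter the test. The groups overlapped, and the estimated number of fragments was 18.8 to 53.5 a liver. Without the minimum the log2 difference was -0.10 (SE 0.0480, adjusted p = 0.371 by limma).

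Scd2, a stearoyl-CoA desaturase best known from brain and fetal liver, was at 1.65, 1.96 and 1.45 FPKM in control livers and at 1.23, 1.28 and 1.15 FPKM in lipophagy livers. The lipophagy livers lay close together and below all control livers. Its mean of 1.22 FPKM was 27.6% below the control mean of 1.68 FPKM, and the log2 difference was -0.27 (SE 0.0913, 95% interval -0.48 to -0.06), or -0.43 with a pseudocount of 0.1. Its unadjusted p of 0.0179 was the lowest among the members, and its adjusted p was 0.194 by limma. Scd2 and Scd1 are close paralogs, and how reads shared between them were counted is not given in the sources used here.

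**Figure D2:**
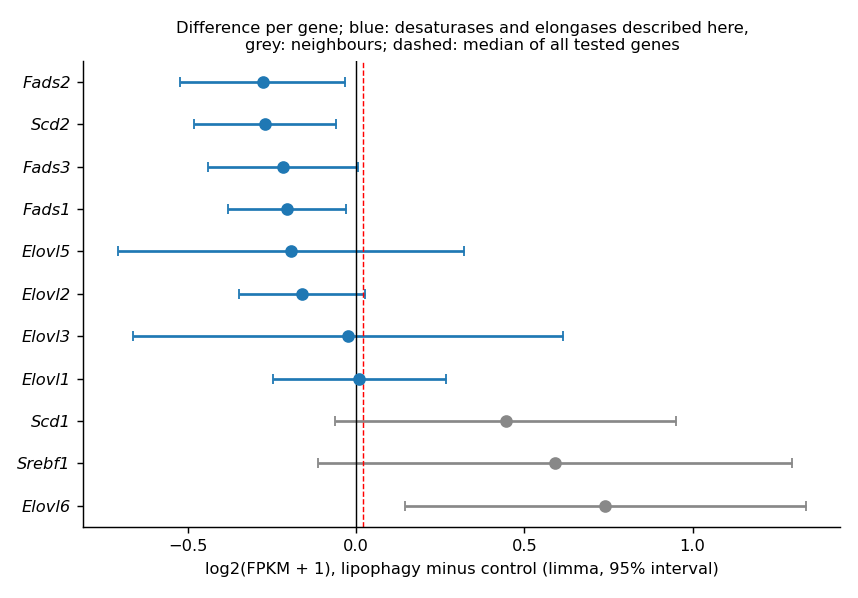
Difference between lipophagy and control livers on the log2(FPKM + 1) scale (horizontal axis) for the 8 tested members in blue and for Scd1, Srebf1 and Elovl6 in grey. Points are limma estimates with 95% intervals, the solid line marks 0 and the dashed line the median of all tested genes at 0.02. Intervals of Fads1, Fads2 and Scd2 lie below 0, that of Elovl6 lies above 0, and those of Elovl3 and Elovl5 are wide.

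Scd1 and Elovl6, neighbouring enzymes of saturated and monounsaturated fatty acids that are not members, had higher means. The members Scd2, Elovl1 and Elovl3, which also make or elongate such chains, differed by -0.27, 0.01 and -0.02. Scd1, the main liver stearoyl-CoA desaturase, was at 605, 457 and 481 FPKM in control livers and at 938, 497 and 720 FPKM in lipophagy livers, which overlapped (log2 difference 0.44, SE 0.220, adjusted p = 0.302 by limma). Elovl6, which elongates palmitate to stearate, was at 9.997, 9.34 and 7.32 FPKM in control livers and at 24.3, 10.6 and 14.1 FPKM in lipophagy livers. All lipophagy livers were above all control livers for Elovl6, with a log2 difference of 0.74 (SE 0.259, adjusted p = 0.202 by limma). Srebf1, which encodes the SREBP1 regulators of fatty acid synthesis, was at 48.0, 37.2 and 28.7 FPKM in control livers and at 90.4, 36.8 and 53.8 FPKM in lipophagy livers (log2 difference 0.59, SE 0.306, adjusted p = 0.318 by limma). Lipophagy liver 1 had the highest Scd1, Elovl6 and Srebf1 and the lowest Fads2 and Fads3 of all livers. Without it the log2 differences were 0.23 for Scd1, 0.43 for Elovl6 and 0.26 for Srebf1, and -0.17 for Fads2 and -0.13 for Fads3. Without lipophagy liver 2, those of Scd1 and Srebf1 were 0.68 and 0.89. None of these neighbours passed the test.

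Because a ratio of 2 enzymes within a liver does not depend on how livers are scaled against each other, 8 such ratios were compared by two-sided exact permutation tests. With 3 livers against 3 the smallest p such a test allows is 0.1. Elovl5 was 9.77, 8.05 and 9.20 times Elovl6 in control livers and 4.003, 5.001 and 4.54 times Elovl6 in lipophagy livers. The groups lay far apart, with a difference of -0.998 in log2 ratio (exact permutation p = 0.1, adjusted over the 8 ratios 0.4). For Elovl5 alone the groups overlapped, and Elovl6 alone was higher.

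The other ratios to an enzyme outside the group, both to Scd1, were also lower on average. Scd2 was 0.272% to 0.428% of Scd1 in control livers and 0.132% to 0.257% in lipophagy livers, without overlap (log2 difference -0.90, exact permutation p = 0.1, adjusted 0.4). Fads2 was 20.7% to 27.6% of Scd1 in control livers and 9.45% to 22.0% in lipophagy livers, which overlapped (-0.73, or -0.40 without lipophagy liver 1, exact permutation p = 0.2, adjusted 0.533). Within the group, no ratio separated control from lipophagy livers. Fads1 was 55.1% to 59.6% of Fads2 in control livers and 54.1% to 74.7% in lipophagy livers (log2 difference 0.07, exact permutation p = 0.9). The differences were -0.11 for Fads3/Fads2 (-0.21 to -0.06 with each liver left out in turn) and 0.03 for Elovl2/Elovl5, with exact permutation p of 0.4 and 0.9. Elovl3/Elovl5 and Elovl1/Elovl5 differed by 0.17 and 0.21, with exact permutation p of 0.9 and 0.6.

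**Figure D3:**
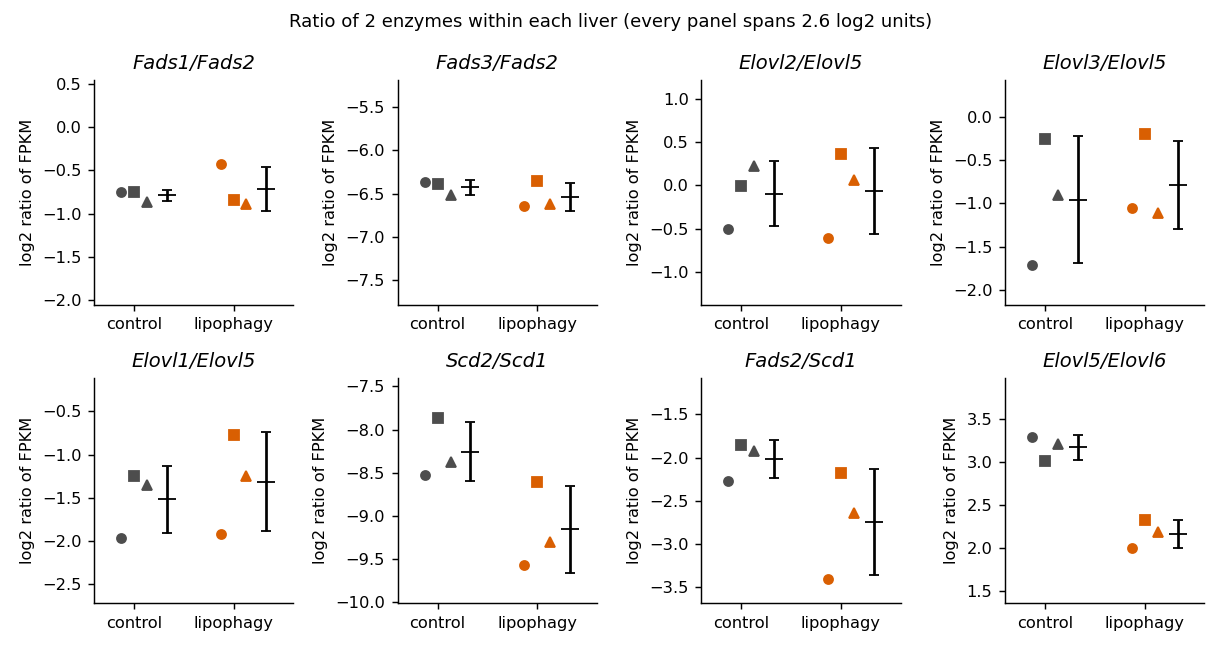
Log2 ratio of the FPKM of 2 enzymes within each liver (vertical axis, 2.6 log2 units in every panel), for control and lipophagy livers. Circle, square and triangle are livers 1, 2 and 3 of a group and horizontal lines are group means. Elovl5/Elovl6 and Scd2/Scd1 were lower in every lipophagy liver than in any control liver, and the 5 ratios between members overlapped.

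The differences were read against the scale of the table. Scaling every liver to the same sum of FPKM moved the median of all tested genes by -0.15, to -0.13. Counts of genes with a higher mean tend to fall with such a shift. Under this scaling the members ranged from -0.46 for Fads2 to -0.17 for Elovl1, and the lowest adjusted p by limma was 0.0546, for Fads1. The split of unadjusted calls over all tested genes was 1327 higher and 916 lower as deposited, 236 higher and 2506 lower with the same sum, and 745 higher and 899 lower after quantile normalization. Relative to the median of all tested genes, none of the 8 members was above it as deposited, with the same sum, with the same median or after quantile normalization. Scd1, Elovl6 and Srebf1 had higher means in lipophagy livers under all of these scalings.

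**Figure D4:**
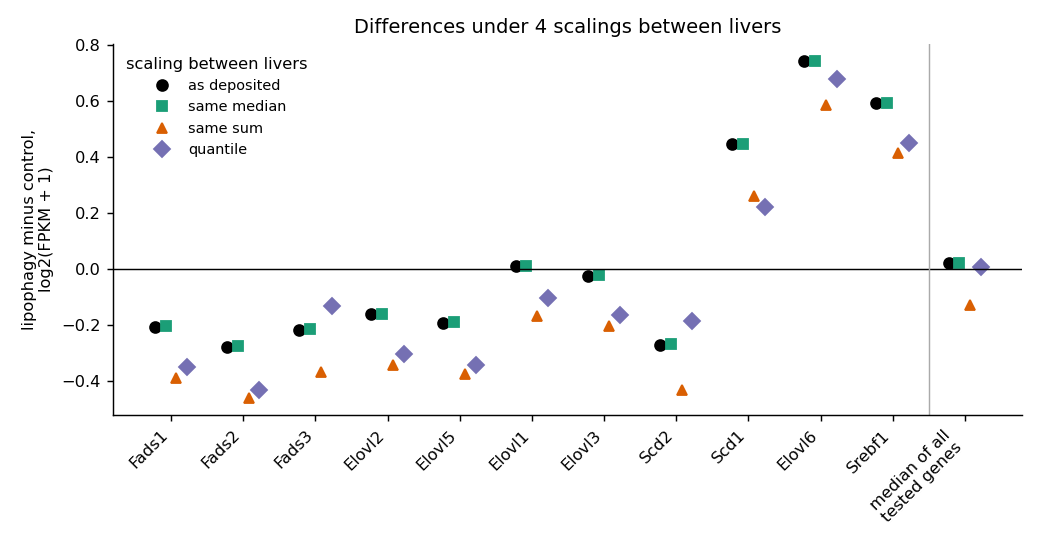
Difference between lipophagy and control livers on the log2(FPKM + 1) scale (vertical axis) for each tested member, for Scd1, Elovl6 and Srebf1, and for the median of all tested genes, under 4 scalings between livers. Black circles are values as deposited, green squares the same median, orange triangles the same sum and purple diamonds quantile normalization. Members lie at or below 0.01 and the 3 neighbours above 0.2 throughout, and the same sum moves the median of all genes to -0.13.

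The partners of these enzymes were described in 10 further lists of the pathway, and no gene of any list passed the adjusted test. The elongation cycle is completed by a reductase, dehydratases and a second reductase, and all 5 tested partners had higher means (median 0.10), with Hsd17b12, the ketoacyl reductase, at 0.14. With livers scaled to the same sum all 5 had lower means (median -0.07), and after quantile normalization 4 of 5 had. Relative to the median of all tested genes, all 5 were above it as deposited and with the same sum, and 1 was after quantile normalization. Desaturases take electrons from cytochrome b5 and its reductases, of which 4 of 5 had higher means, 2 of them with an unadjusted p below 0.05, as 11.5% of all tested genes had with a higher mean. Cyb5a, the microsomal cytochrome b5, had the largest positive difference at 0.25. It was at 1901 to 2066 FPKM in control livers and 2192 to 2578 FPKM in lipophagy livers. Cyb5r1 had the lowest at -0.26. With the same sum 2 of the 5 were higher, and after quantile normalization 3 were. Of these 5, 4 were above the median of all tested genes as deposited and with the same sum, and 0 after quantile normalization.

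Acyl-CoA synthetases activate fatty acids before either reaction. All 6 tested had higher means, 3 with an unadjusted p below 0.05 against 11.5% of all tested genes (median 0.31), led by Slc27a5, a very long chain and bile acyl-CoA synthetase, at 0.35 (SE 0.0994, adjusted p = 0.160 by limma), and 5 of 6 were higher with the same sum. Of 7 tested lipogenic targets of SREBP1c, all 7 had higher means under every scaling, 5 with an unadjusted p below 0.05 against 11.5% of all tested genes and 3 without overlap against 15.4% (median 0.47). Thrsp, a lipogenic cofactor, was at 124, 172 and 85.1 FPKM in control livers and at 802, 284 and 818 FPKM in lipophagy livers. The groups did not overlap, and its log2 difference of 2.22 (SE 0.416, adjusted p = 0.116 by limma) was the largest in these lists. Of the 3 tested genes listed for the saturated and monounsaturated branch all had higher means under every scaling, with Elovl6 as the largest. The member Scd2, which makes monounsaturated fatty acids, was not in that list and had a lower mean.

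The genes that use the products were counted in the same way. Of 10 tested genes of phospholipid acyl remodelling and release, a list of acyltransferases that put fatty acids into membrane lipids, phospholipases that free them and a transporter, 4 had higher and 6 lower means (median -0.04), against 1 higher and 9 lower with the same sum (median -0.21) and 3 higher and 7 lower after quantile normalization. Mfsd2a, a lysophospholipid transporter of DHA, was at 6.17, 6.50 and 2.28 FPKM in control livers and at 10.1, 3.19 and 24.8 FPKM in lipophagy livers, a log2 difference of 0.92 that lipophagy liver 3 carried (SE 0.604, adjusted p = 0.416 by limma). Lpcat4, a lysophospholipid acyltransferase, had the lowest value at -0.28, with the groups apart and below 1 FPKM. Of 10 genes for the peroxisomal shortening that ends DHA synthesis, 9 had higher means (median 0.13), with Ehhadh at 0.21 and Abcd2 at -0.07. With the same sum and after quantile normalization 4 of 10 were higher. Above the median of all tested genes were 9 as deposited, 8 with the same sum and 4 after quantile normalization.

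Oxylipin enzymes, which turn arachidonic acid into prostaglandins and leukotrienes, had 6 higher and 6 lower means of 12 (median -0.0036), with the prostaglandin E synthase Ptges2 at 0.37 and Alox5ap, the activating protein of leukotriene synthesis, at -0.21. With the same sum the split was 3 higher and 9 lower (median -0.17), and after quantile normalization 5 higher and 7 lower. Of 3 tested ceramide synthases 1 had a higher mean, Cers2 at 0.08, and none had with the same sum, and Cers5 was lowest at -0.16. Of 14 regulators, including SREBP, LXR and PPAR genes, 9 had higher and 5 lower means (median 0.06), from Srebf1 at 0.59 to Insig2, a retention protein of SREBP, at -0.31, and 5 of 14 were higher with the same sum and after quantile normalization.

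**Figure D5:**
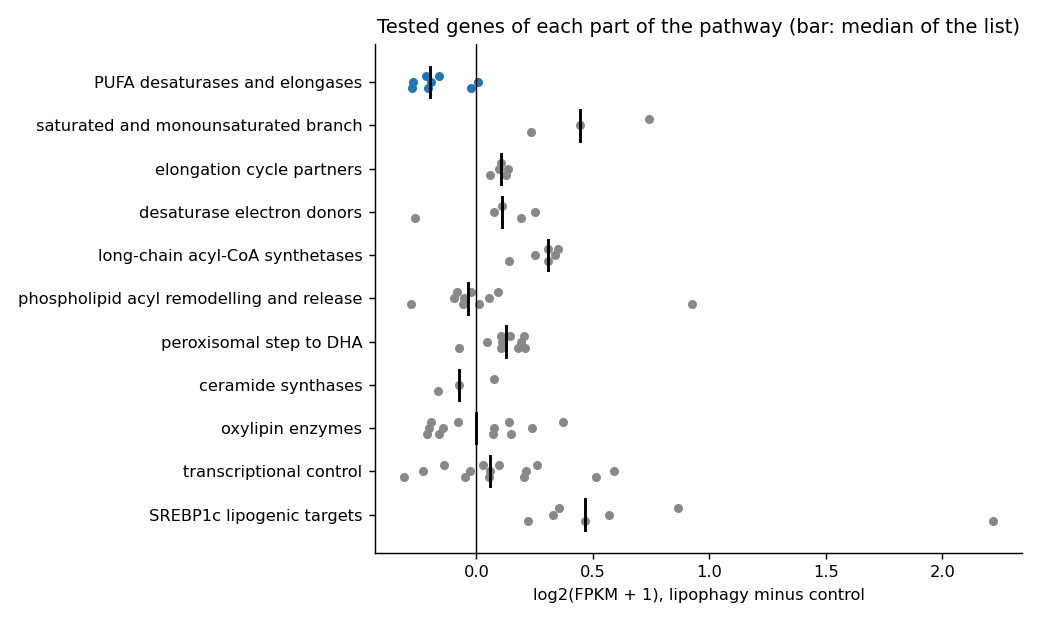
Difference between lipophagy and control livers on the log2(FPKM + 1) scale (horizontal axis) for every tested gene (points) of the desaturases and elongases (blue) and of 10 further lists (grey), with a bar at each list's median. The median was -0.20 for the desaturases and elongases, 0.44 for the saturated and monounsaturated branch and 0.47 for lipogenic targets of SREBP1c, and no gene shown passed the adjusted test.

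Over the 6 livers, each tested member was set beside 82 genes of the pathway to find the one whose log2 level was most like its own, which was another member for Fads1, Fads2 and Fads3 and a gene outside the group for the others. Fads2 and Fads3 were most like each other (Pearson r = 0.92), and Fads1 was most like Scd2 (r = 0.91). Scd2 itself was most like Lpcat4 (r = 0.96) and Elovl2 most like Alox5ap (r = 0.93). Elovl3 was most like Ptgis (r = 0.84), Elovl1 most like Hacd1 (r = 0.78) and Elovl5 most like Abcd2 (r = 0.70). Each r is the highest of 82 and is high by that selection. In the other direction, the lowest r of each member ran from -0.999 for Elovl2 to -0.82 for Scd2. These values describe 6 livers of 2 groups, the difference between groups is part of them, and the genes share libraries and depth.

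The summed markers of hepatocytes, stellate cells and lymphocytes did not overlap between groups, and no single tested marker passed the adjusted test. The summed FPKM of 10 hepatocyte markers was 82027 to 90175 in control livers and 95360 to 123040 in lipophagy livers, and 8 of 10 had higher means, or 6 of 10 with the same sum and after quantile normalization. Without Alb, left out after its values were seen, the other 9 summed to 46557 to 51016 in control livers and 50351 to 58955 in lipophagy livers, which overlapped. The summed FPKM of 10 stellate cell markers was 176 to 186 in control livers and 139 to 168 in lipophagy livers, with 9 of 10 means lower under every scaling. Sums of the 9 lymphocyte markers, of which 4 entered the test, were 7.45 to 9.32 and 5.81 to 6.82 FPKM. Sums of the 11 macrophage, 8 sinusoidal endothelium and 7 bile duct cell markers overlapped between groups. They were 549 to 730 against 545 to 672 FPKM, 25.0 to 30.9 against 29.0 to 46.4 FPKM and 139 to 250 against 94.0 to 201 FPKM. Lyz2 and Spp1 made up most of the macrophage and bile duct sums. Means were lower for 7 of 11 macrophage, 2 of 8 endothelial and 5 of 6 tested bile duct markers (medians -0.15, 0.07 and -0.50). With the same sum 10, 5 and 6 were lower. Of 5 adipocyte markers Lep was listed at 0 in every liver, and only 1, Plin1, entered the test. Plin1, from which the LDTS of both viruses derives, made up nearly all of their sum at 116 to 160 against 81.9 to 97.9 FPKM. That sum did not overlap between groups, but it describes Plin1 rather than adipocytes. In bulk tissue, fewer cells of a type and less RNA per cell cannot be told apart. The part of these markers in the differences of the desaturases and elongases was not tested.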

How the data were processed

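RNA of 6 livers, 3 from each virus group, was sequenced from poly(A)-selected, stranded libraries as 100 bp paired-end reads. The labels gave group and replicate number of every liver. The authors deposited FPKM per gene symbol and liver. The submitters' processing notes name TopHat2 2.0.13, Bowtie2 2.2.3, SAMtools 0.1.19, Cufflinks 2.2.1 and the build mm10, and the annotation and strand setting are not given in the sources used here. FPKM are scaled to transcript length and to mapped fragments, so no count model was used.

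From these values log2(FPKM + 1) was computed, and all 11493 genes averaging 0.5 FPKM or more were fitted with limma 3.58.1 in R 4.3.3 (intensity trend, no covariates, two-sided, Benjamini-Hochberg adjustment, threshold 0.05). Differences on this scale understate those of low genes. Ratios within a liver used no pseudocount and exact permutation tests. Python 3.11.15, pandas 2.3.3, numpy 2.4.6, scipy 1.17.1 and matplotlib 3.10.9 served for tables and plots. Fragment numbers were estimated from the value of 1 fragment in 75 genes with 1 transcript, with a fragment length of 150 subtracted, and cover counting error only. Positions and windows are those of RefSeq (GRCm38.p6).

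The members, the lists, the 8 ratios and the tests were chosen with earlier results of these data known. Named were all members, Scd1, Elovl6 and Srebf1. In each list of the pathway the tested gene farthest above 0 and the one farthest below 0, where there was one, were named. Any gene of a list with an adjusted p below 0.05 was to be named too. For each tested member the gene of the pathway lists with the highest positive correlation was named as well. Alternatives were a pseudocount of 0.1 or 0.5, other minimum levels, 3 other scalings, limma without the trend, quality weights for livers, a replicate block and leaving out each liver in turn.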

Additional observations from a re-analysis of the deposited data

How the results depend on the processing

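The differences of the 8 tested members were recomputed under 17 alternatives each. None of the 136 values had an adjusted p below 0.05. In 40 of them the difference is that of the report by construction, since only the minimum level, the trend or the replicate block differed. Of the other 96, 89 kept their direction and 7 changed sign, all of them of Elovl1 or Elovl3. Elovl1 became -0.17 with livers scaled to the same sum and -0.10 after quantile normalization, and ran from -0.066 to 0.11 when each liver was left out in turn, while Elovl3 ran from -0.25 to 0.28. Of 56 alternative values of the ratios that could change, 47 kept their direction. With each liver left out in turn, Fads1/Fads2 ran from -0.075 to 0.16, Elovl2/Elovl5 from -0.18 to 0.31, Elovl3/Elovl5 from -0.21 to 0.52 and Elovl1/Elovl5 from -0.065 to 0.51, and Fads3/Fads2 became 0.061 with a pseudocount of 1. The median member difference became -0.37 with the same sum. Members with an unadjusted p below 0.05 numbered 5 with the same sum, where 2506 of all 11493 genes had such a p with a lower mean against 916 as deposited. They numbered 0 to 3 when a liver was left out, the 0 being without control liver 2, where 666 of all genes did. The adjusted p was below 0.05 for 3 genes of the whole table, against 1 without a minimum level, 104 with the same sum (99 of them lower), 39 with quality weights and 43 with the replicate block. Leaving out livers gave 1 to 11. There were 7 such genes when control liver 2 was left out and 1 when control liver 3 was, 5 when lipophagy liver 2 was left out and 11 when lipophagy liver 3 was. The cause of these differences in number was not tested. The deviations of same-numbered livers correlated at 0.25, 0.23 and -0.06, and those of other-numbered livers at -0.39 to 0.25. These few values cannot decide whether the replicate numbers pair the livers. With the replicate block 2 members had an unadjusted p below 0.05, as did 911 of all genes with a lower mean. Depth limits Fads3, Scd2 and Elovl7, which rest on an estimated 18.8 to 261 fragments a liver.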
